A study of Mus musculus with 12 samples.

Results

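The transcripts of 4 nuclear genes tied to mitochondrial function were followed across 4 lines of mouse embryonic fibroblasts. They were Ppargc1a, which encodes the coactivator PGC-1alpha, Esrra, which encodes the nuclear receptor ERRalpha, Cycs, which encodes somatic cytochrome c, and Chchd10. All probe sets that the platform annotation assigns to these genes were taken, whatever their signal. This gave 5 of the 12488 probe sets on the array for 4 of its 8251 named genes, 1 each for Ppargc1a, Chchd10 and Cycs and 2 for Esrra. The study measured total RNA on 12 Affymetrix arrays, 3 for each line. All lines were of the DBA background strain and had the genotype KSR1 -/-, so that they lacked the endogenous copy of KSR1, on which the kinases Raf, MEK and ERK assemble. All of them also carried green fluorescent protein (GFP). One line carried KSR1 and H-RasV12, a constitutively active Ras mutant, and is called the double line here. The second carried KSR1, the third carried H-RasV12, and the fourth carried GFP with neither. The promoter that drove each transgene, and whether a line was a clone or a pool, are not given in the sources used here. There was 1 cell line per condition. No label says whether the 3 arrays of a line were separate cultures, so p-values reflect the scatter among arrays of single lines, which may be technical.

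PGC-1alpha binds no DNA itself. It is recruited by transcription factors, ERRalpha and NRF-1 among them, and raises the transcription of genes of the respiratory chain, the citric acid cycle and fatty acid oxidation, and it is known for its high levels in brown fat, heart, muscle and the fasted liver. ERRalpha is an orphan nuclear receptor that works with PGC-1alpha on many of these genes, and its own gene is a known target of the pair. Cytochrome c carries electrons between complexes III and IV of the respiratory chain and, once released into the cytosol, binds Apaf1 and starts the caspase-9 step of apoptosis. Chchd10 is a small protein of the mitochondrial intermembrane space, linked to cristae and complex IV, and its human counterpart is mutated in families with motor neuron disease and mitochondrial myopathy.

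The promoters of the 4 genes are shown because their transcripts were highest in the same line. Each sequence is from RefSeq (GRCm38.p6) and runs from 250 bases before to 50 bases after the start site of the table, 5′ to 3′ on the strand of the gene. They lie at chr5:51567676-51567975 on the minus strand for Ppargc1a, chr19:6921759-6922058 on the minus strand for Esrra, chr6:50566520-50566819 on the minus strand for Cycs and chr10:75932880-75933179 on the plus strand for Chchd10. The start site used by the table lies inside the annotated gene for Ppargc1a, chr5:51454249-52115853, and for Esrra, chr19:6910977-6922048. Ppargc1a has further start sites upstream. Nearly all of the Esrra window, with its motif match, lies within the annotated gene. Capitals mark matches to the motifs described after the sequences.
Ppargc1a: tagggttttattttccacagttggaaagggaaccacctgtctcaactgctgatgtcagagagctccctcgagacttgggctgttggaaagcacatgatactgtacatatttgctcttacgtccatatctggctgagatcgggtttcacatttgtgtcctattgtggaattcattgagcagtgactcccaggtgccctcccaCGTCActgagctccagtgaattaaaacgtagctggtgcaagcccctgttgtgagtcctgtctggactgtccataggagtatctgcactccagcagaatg
Esrra: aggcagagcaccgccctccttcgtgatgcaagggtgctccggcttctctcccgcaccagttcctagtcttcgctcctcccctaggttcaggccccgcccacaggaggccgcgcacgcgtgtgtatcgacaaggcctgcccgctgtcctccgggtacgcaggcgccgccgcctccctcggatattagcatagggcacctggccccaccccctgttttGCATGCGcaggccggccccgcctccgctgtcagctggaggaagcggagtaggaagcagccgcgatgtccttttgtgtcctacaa
Cycs: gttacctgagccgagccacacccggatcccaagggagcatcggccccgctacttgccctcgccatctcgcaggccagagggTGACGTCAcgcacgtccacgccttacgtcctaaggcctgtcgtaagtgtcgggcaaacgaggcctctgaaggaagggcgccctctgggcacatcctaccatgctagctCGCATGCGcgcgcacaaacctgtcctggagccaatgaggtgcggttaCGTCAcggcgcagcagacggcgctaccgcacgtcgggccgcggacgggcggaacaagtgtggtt
Chchd10: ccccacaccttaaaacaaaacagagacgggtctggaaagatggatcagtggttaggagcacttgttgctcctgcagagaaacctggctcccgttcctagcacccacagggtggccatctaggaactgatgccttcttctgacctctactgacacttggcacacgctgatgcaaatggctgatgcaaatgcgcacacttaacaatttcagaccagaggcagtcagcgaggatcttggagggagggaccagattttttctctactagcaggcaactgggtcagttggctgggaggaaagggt
Each window was searched on both strands for 5 short motifs. The core of the NRF-1 site, GCATGCG, stood in Esrra at -34 and in Cycs at -61 and -60, where the 2 matches overlap on opposite strands, and in 3.58% of the 32851 promoters of the table. The core of the cAMP response element, TGACG, stood in Ppargc1a at -49 on the antisense strand and in Cycs at -169, -166 and -14, the first 2 of these overlapping on opposite strands. It stood in 20.8% of all promoters. The extended core site bound by ERRalpha, AAGGTCA (4.72% of all promoters), the ETS core CCGGAAG (8.86%) and the E box CACGTG (7.15%) had no match in any of the 4 windows, and Chchd10 had no match to any of the 5 motifs. Such matches describe letters in these windows alone.

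Levels are MAS5 signals, a linear scale made by the authors on which 1 probe set can be compared between arrays but not with another probe set. Fold changes are differences of log2(signal + 23) with their standard errors from limma, and a probe set was called when its Benjamini-Hochberg adjusted p was under 0.05. To be tested, a probe set had to exceed a signal of 181.4 (the overall median) on 3 or more arrays, which 6897 did. Ppargc1a did not, and its tests come from the same fit without the filter, over 12422 probe sets. With 3 arrays a line, their number sets the precision. Within a line, arrays correlated with r of 0.911 to 0.965 across probe sets. On 1 of the 2 Ksr1 probe sets (92765_s_at) the means were higher in the lines labelled as carrying KSR1, but single arrays overlapped, with signals of 140.9 to 301.2 in the double line, 207.3 to 1605 in the KSR1 line, 14.2 to 32.2 in the H-RasV12 line and 21.1 to 143.7 in the GFP line, where GFP replicate 1 lay above double-line replicate 3. The other (92764_at) lay between 180 and 366 on all 12 arrays and did not separate the lines. Of 9 fibroblast markers, Col1a1, Col1a2, Col3a1, Pdgfra, S100a4, Fn1 and Pdgfrb passed the filter, with Col1a1 down to 178 on double-line replicate 3. Pdgfrb was below the filter signal on all arrays of the double line, at 7.06 to 59.6, against 69.4 to 363 in the KSR1 line, 255 to 350 in the H-RasV12 line and 396 to 541 in the GFP line. Thy1 and Vim read at most 55.8 and 128 on any array. The summed signal of the 9 fibroblast markers was 18460 to 28999 in the double line, 29981 to 34294 in the KSR1 line, 45176 to 62782 in the H-RasV12 line and 45105 to 60915 in the GFP line. Of the 7 tested, 4 were called lower in the double line than in the GFP line, 4 than in the H-RasV12 line and 2 than in the KSR1 line. Over all tested probe sets 7.93%, 7.71% and 6.92% were called lower in the same order.

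All 5 probe sets were highest in the double line, and on each of them the 3 double-line arrays lay above all 9 arrays of the other lines. The same held for 4.15% of the 12422 probe sets outside the controls. In the fit without the filter, over 12422 probe sets, the double line was called higher than the GFP line on 5 of the 5, higher than the H-RasV12 line on 5 of 5 and higher than the KSR1 line on 4 of 5, where 4.1%, 3.92% and 4.13% of all probe sets were called higher in the order given. With the filter and the replicate number as a block, the fifth, Esrra 103964_at, also passed against KSR1 (limma adjusted p = 0.0174). The calls were the same for the 4 probe sets that passed the filter, where 7.71%, 7.1% and 8.16% of the 6897 were called higher, but Esrra 102145_f_at passed it through the double-line arrays alone. Neither transgene alone moved any of the 5 past the threshold, against 11.8% of tested probe sets called in either direction for KSR1 against GFP and 0.0725% (5 probe sets, with 411 at an unadjusted p under 0.05) for H-RasV12 against GFP. These comparisons share arrays and are not independent of each other. RNA was measured in bulk, so more cells expressing a gene and more RNA per cell cannot be told apart. The summed signal of the fibroblast markers above was lowest in the double line and next lowest in the KSR1 line. Single markers differed, as Col1a2, Col3a1 and Fn1 had their lowest means in the KSR1 line and Pdgfra in the GFP line. The part of the markers in these differences was not tested.

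**Figure D1:**
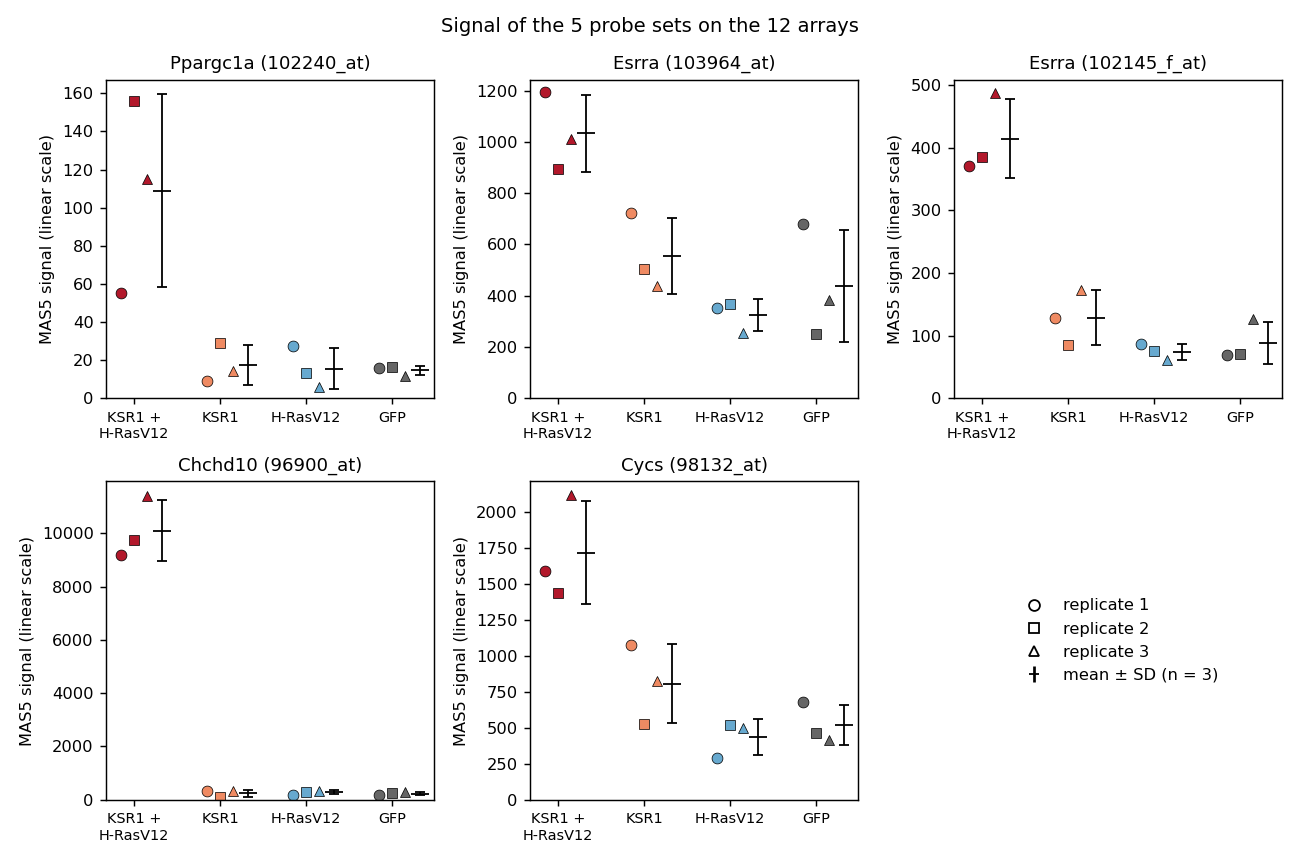
MAS5 signal (linear axis from 0) of the 5 probe sets on each of the 12 arrays, with the mean ± SD of the 3 arrays of each line beside the points. On every panel the 3 double-line arrays lie above the other 9, by the widest margin for Chchd10.

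Ppargc1a (102240_at) was near the bottom of the scale in all lines but one. It read 55.3, 156 and 115 in replicates 1 to 3 of the double line, 8.81, 29.2 and 14.2 in the KSR1 line, 27.3, 12.9 and 5.90 in the H-RasV12 line and 15.7, 16.0 and 11.8 in the GFP line. The lowest double-line array stood 1.90 times above the highest of the others, and none of the 12 arrays reached the filter signal of 181.4. Means were 109 ± 50.6 in the double line, 17.4 ± 10.5 in the KSR1 line, 15.4 ± 10.9 in the H-RasV12 line and 14.5 ± 2.37 in the GFP line (SD, n = 3 each), so the 3 lower lines did not differ beyond their spread. In the fit without the filter, Ppargc1a was 1.73 ± 0.31 higher on the log2 scale in the double line than in the GFP line (limma adjusted p = 0.00317). Against the H-RasV12 line the difference was 1.74 ± 0.31 (limma adjusted p = 0.00342), and against the KSR1 line it was 1.66 ± 0.31 (limma adjusted p = 0.00467). All 3 calls held in each of 21 alternative settings.

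At signals this low the size of a fold change rests on the pseudocount. Adding 5 in place of 23 gave Ppargc1a differences of 2.44 against GFP, 2.51 against H-RasV12 and 2.34 against KSR1, and adding 100 gave 0.84, 0.83 and 0.80 in the same order. The ratios of mean signals were 7.49, 7.08 and 6.26 in that order. H-RasV12 alone against GFP gave -0.00 (95% interval -0.68 to 0.67), and KSR1 alone against GFP gave 0.08 (-0.60 to 0.75). The interaction, or the change brought by H-RasV12 in the presence of KSR1 less that in its absence, was 1.66 ± 0.44 and did not pass the threshold (limma adjusted p = 0.0591), whereas 1.95% of all probe sets were called higher for it in the unfiltered fit. It passed without double-line replicate 1 (limma adjusted p = 0.0118), the lowest of the 3 double-line arrays, and without H-RasV12 replicate 1 (limma adjusted p = 0.0484), the highest of the H-RasV12 arrays.

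Esrra was read by 2 probe sets of different brightness. On the brighter one (103964_at) the signals were 1194, 893 and 1012 in replicates 1 to 3 of the double line, 722, 505 and 437 in the KSR1 line, 351, 367 and 255 in the H-RasV12 line and 677, 248 and 383 in the GFP line. The double line was highest without overlap, the lowest of its arrays standing 1.24 times above the highest of the others, and the GFP arrays spanned nearly the whole range of the 3 lower lines. Means were 1033 ± 151 in the double line, 555 ± 149 in the KSR1 line, 324 ± 60.6 in the H-RasV12 line and 436 ± 219 in the GFP line (SD, n = 3 each). The difference was 1.30 ± 0.30 against GFP (limma adjusted p = 0.00754) and 1.61 ± 0.30 against H-RasV12 (limma adjusted p = 0.00173), and both held in each of 22 alternative settings. Against KSR1 it was 0.89 ± 0.30 with a 95% interval of 0.25 to 1.53 and missed the threshold (limma adjusted p = 0.0598).

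That last difference was close to the threshold in most settings. With the replicate number as a block it passed at the same size (limma adjusted p = 0.0174). It also passed without GFP replicate 1 (0.89, limma adjusted p = 0.0200), without GFP replicate 2 (0.89, limma adjusted p = 0.0314), without KSR1 replicate 1 (1.09, limma adjusted p = 0.0444) and on replicates 2 and 3 alone (0.98, limma adjusted p = 0.0288). Replicate 1 was the highest array of the double, KSR1 and GFP lines on this probe set, and the same 3 arrays had the lowest signals of the 18S ribosomal RNA control (its 3′ probe set) in their lines, 146 in the double line, 395 in the KSR1 line and 345 in the GFP line, against 516 to 3312 on the other 9 arrays. H-RasV12 replicate 1 was also the lowest of its line on this control, at 1114, but was not the highest of its line on Esrra. Its part in the spread was not tested.

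The dimmer Esrra probe set (102145_f_at) gave 372, 386 and 488 in replicates 1 to 3 of the double line, 128, 84.6 and 173 in the KSR1 line, 85.7, 75.4 and 60.6 in the H-RasV12 line and 68.3, 70.1 and 127 in the GFP line. Only the 3 double-line arrays exceeded 181.4, so it entered the test through the line in which it was high, and a difference was bound to appear in the filtered test. The suffix of its name marks a probe set whose probes can match several transcripts of a family. Means were 415 ± 63.2 in the double line, 128 ± 44.3 in the KSR1 line, 73.9 ± 12.6 in the H-RasV12 line and 88.4 ± 33.4 in the GFP line (SD, n = 3 each). The double line was 2.00 ± 0.31 higher than GFP (limma adjusted p = 0.000379), 2.18 ± 0.31 higher than H-RasV12 (limma adjusted p = 0.000210) and 1.57 ± 0.31 higher than KSR1 (limma adjusted p = 0.00283), and all 3 calls held in each of 22 alternative settings, the fit without the filter included.

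Both Esrra probe sets thus gave the double line the highest level and the KSR1 line the second highest mean, and on both the KSR1 arrays overlapped the GFP arrays. KSR1 against GFP gave 0.41 (95% interval -0.23 to 1.05) on the brighter and 0.44 (-0.22 to 1.10) on the dimmer probe set. H-RasV12 against GFP gave -0.31 (-0.95 to 0.33) and -0.17 (-0.83 to 0.49). For the interaction, which called 4.16% of tested probe sets higher, the dimmer probe set passed at 1.74 ± 0.44 (limma adjusted p = 0.0248) and the brighter one did not, at 1.20 ± 0.42 (limma adjusted p = 0.106). The call on the dimmer probe set was lost on leaving out replicate 3 of the double line (1.62), replicate 2 of the KSR1 line (1.51), replicate 2 or 3 of the H-RasV12 line (1.75 or 1.63) or replicate 3 of the GFP line (1.50), with limma adjusted p-values of 0.0545 to 0.0698. The brighter one passed without GFP replicate 2 (1.53, limma adjusted p = 0.0318).

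Cytochrome c was read by a bright Cycs probe set (98132_at). Its signals were 1593, 1439 and 2121 in replicates 1 to 3 of the double line, 1075, 525 and 824 in the KSR1 line, 289, 522 and 497 in the H-RasV12 line and 678, 461 and 417 in the GFP line. All double-line arrays were above the rest, the closest approach being the ratio of 1.34 between the lowest of them and KSR1 replicate 1. Means were 1718 ± 358 in the double line, 808 ± 275 in the KSR1 line, 436 ± 128 in the H-RasV12 line and 519 ± 140 in the GFP line (SD, n = 3 each). The gene table lists 3 Cycs pseudogenes, and reads of their transcripts by the same probes cannot be told apart from those of Cycs here.

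In the double line Cycs was 1.70 ± 0.29 higher than in the GFP line (limma adjusted p = 0.000826) and 1.95 ± 0.29 higher than in the H-RasV12 line (limma adjusted p = 0.000297), and both calls held in each of 22 alternative settings. The difference from the KSR1 line was 1.11 ± 0.29 (limma adjusted p = 0.0176). That call was lost without KSR1 replicate 2 (0.83, limma adjusted p = 0.0973), the lowest KSR1 array, and without double-line replicate 3 (0.94, limma adjusted p = 0.0721), the highest double-line array. The KSR1 line was second in the order of means and its arrays overlapped those of the GFP line, with a difference of 0.59 (95% interval -0.03 to 1.21, limma adjusted p = 0.221). H-RasV12 against GFP gave -0.25 (-0.87 to 0.36). The interaction of 1.36 ± 0.41 missed the threshold (limma adjusted p = 0.0574), and it passed without KSR1 replicate 1 (1.59, limma adjusted p = 0.0335).

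Chchd10 (96900_at) had the widest separation of the 5 probe sets. It read 9179, 9735 and 11384 in replicates 1 to 3 of the double line, 328, 98.0 and 319 in the KSR1 line, 190, 306 and 337 in the H-RasV12 line and 161, 255 and 277 in the GFP line. The lowest double-line array was 27.2 times as bright as the highest of the other 9, and among those 9 the lines overlapped. Means were 10099 ± 1146 in the double line, 248 ± 130 in the KSR1 line, 278 ± 77.2 in the H-RasV12 line and 231 ± 61.3 in the GFP line (SD, n = 3 each), which makes ratios of means of 40.7 against KSR1, 36.4 against H-RasV12 and 43.7 against GFP.

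On the log2 scale the Chchd10 difference was 5.34 ± 0.35 against GFP (limma adjusted p = 2.50e-07), 5.10 ± 0.35 against H-RasV12 (limma adjusted p = 4.15e-07) and 5.37 ± 0.35 against KSR1 (limma adjusted p = 2.62e-07). Among the 6897 tested probe sets its rank from the highest fold change was 3 against GFP, 2 against H-RasV12 and 1 against KSR1. H-RasV12 against GFP gave 0.24 (95% interval -0.51 to 0.99) and KSR1 against GFP gave -0.03 (-0.78 to 0.72). The interaction was 5.13 ± 0.50 (limma adjusted p = 4.02e-05), the highest of all tested probe sets, and was called in each of 21 alternative settings at 4.62 to 5.44. Chchd10 and the dimmer Esrra probe set were thus the 2 of the 5 whose interaction was called. Over all probe sets, 4.16% were called higher for it with the filter and 1.95% without the filter.

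**Figure D2:**
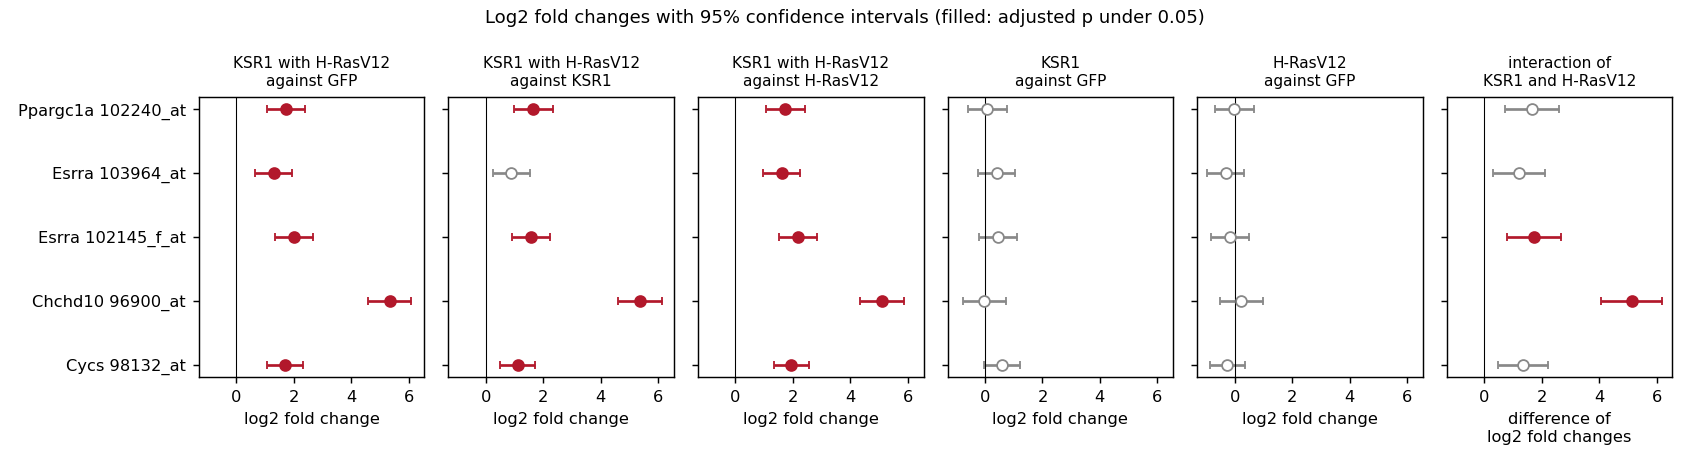
Log2 fold change (points) with its 95% confidence interval (bars) of the 5 probe sets in 5 comparisons between lines and in the interaction, filled where the limma adjusted p was under 0.05. The 3 comparisons of the double line lie to the right of 0 for all 5, with the brighter Esrra probe set against KSR1 as the open point, and all points for the transgenes alone are open.

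Below the double line the 4 genes did not share an order. Over the 9 other arrays the brighter Esrra probe set and Cycs had a Pearson correlation of log2 values of 0.66, both being high on KSR1 replicate 1 and GFP replicate 1. Ppargc1a and Chchd10 had one of -0.84, in a range of signals where Ppargc1a lay between 5.90 and 29.2. These correlations are descriptions over 9 arrays that share lines and array-wide effects. They cover 2 of the 10 pairs of probe sets, of which the other 8 lay between -0.45 and 0.45.

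Genes reported as targets of PGC-1alpha or ERRalpha were higher in the double line in large part. This list, like those below, was written with earlier results of these data known. A link between these genes and the levels of Ppargc1a or Esrra was not tested. Of 65 listed genes, 54 were on the array and 44 passed the filter. Against the KSR1 line 31 of the 44 rose and 0 fell, where 8.16% and 6.92% of all tested probe sets did, with a median log2 fold change of 0.92 beside -0.07 over all tested probe sets. Against GFP 26 rose and 1 fell (median 0.70 beside -0.02), where 7.71% of all rose and 7.93% fell, and against H-RasV12 26 rose and 1 fell (median 0.72 beside -0.05), where 7.1% rose and 7.71% fell. Without double-line replicate 2 the numbers that rose were 20 against KSR1, 15 against GFP and 16 against H-RasV12. Calls over all tested probe sets, in either direction, then went from 1040 to 725, 1079 to 833 and 1022 to 785 in that order. H-RasV12 against GFP raised 0 of the 44. Over all tested probe sets it called 0 higher and 5 lower, so that count cannot tell the targets from the rest. KSR1 against GFP raised 0 of the 44, and 2 fell. Over all tested probe sets it called 343 higher and 470 lower, and 11.8% were called in either direction. The number of the 44 that fell was 1 without GFP replicate 2 or KSR1 replicate 3 and 0 without KSR1 replicate 2. Calls over all tested probe sets, in either direction, then went from 813 to 603, 617 and 512 in that order.

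The 4 largest rises against KSR1 were in Lpl, Pdk4, Hadhb and Acadm. Lpl, the lipoprotein lipase that frees fatty acids from circulating lipids, had a mean signal of 729 ± 496 in the double line and 18.4 ± 6.16 in the KSR1 line, a log2 difference of 3.90 ± 0.54 (limma adjusted p = 0.000194). The KSR1 signals of Lpl lay near or below the pseudocount, so the size rests on it, at 4.69 with a pseudocount of 5 and 2.58 with 100. Lpl was also the 1 gene of the 44 that passed the filter through the double-line arrays alone, so a difference was bound to appear in the filtered test. In the fit without the filter its limma adjusted p against KSR1 was 0.000457. Pdk4, a kinase that shuts pyruvate dehydrogenase and is induced in fasting, had 1911 ± 178 in the double line and 328 ± 232 in the KSR1 line, a difference of 2.66 ± 0.36 (limma adjusted p = 0.000151). Hadhb and Acadm, enzymes of mitochondrial fatty acid oxidation, were 1.70 ± 0.18 (limma adjusted p = 2.62e-05) and 1.69 ± 0.30 (limma adjusted p = 0.00133) higher. Lpl and Pdk4 also rose against GFP, by 2.48 ± 0.54 and 2.83 ± 0.36. The target that fell was Cox6a2, the muscle and heart form of a complex IV subunit. Its mean was 32.9 ± 5.53 in the double line, 90.8 ± 85.1 in the KSR1 line, 382 ± 177 in the H-RasV12 line and 362 ± 115 in the GFP line, a log2 difference of -2.75 ± 0.45 between the double line and GFP (limma adjusted p = 0.000597). These calls held in each of 22 alternative settings.

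**Figure D3:**
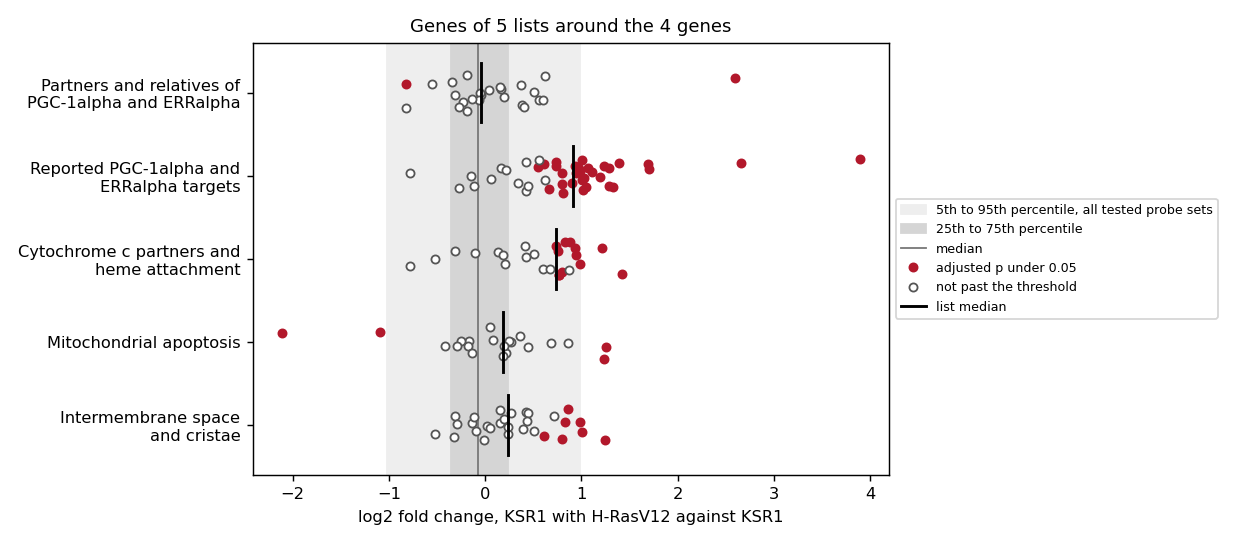
Log2 fold change of the double line against the KSR1 line for the tested genes of 5 lists (points, filled where the limma adjusted p was under 0.05), with each list's median as a bar and the percentiles of all 6897 tested probe sets as shading. The target list and the cytochrome c partners have medians of 0.92 and 0.74, against -0.04, 0.19 and 0.24 for the other 3 lists. Some genes are shared between lists and drawn in each.

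Partners of cytochrome c in the respiratory chain, with the enzymes that make and attach heme, gave 25 tested genes of 41 listed. Of these, Cyc1, Uqcrc2, Cox5b, Cox6a1 and Cox6a2 are also on the target list, so the counts of the lists are not separate from each other. Against KSR1 12 rose and 0 fell (median 0.74 beside -0.07 over all tested probe sets), where 8.16% of all rose and 6.92% fell. Against GFP 8 rose and 1 fell (median 0.56 beside -0.02), where 7.71% rose and 7.93% fell, and against H-RasV12 11 rose and 1 fell (median 0.61 beside -0.05), where 7.1% rose and 7.71% fell. The number that rose against KSR1 was 7 without KSR1 replicate 2. Calls over all tested probe sets, in either direction, then went from 1040 to 699. Cox6a2, described above, was the gene that fell. The largest rises against KSR1 were in subunits of complex III, the complex that reduces cytochrome c: Uqcr10 by 1.42 ± 0.21 (limma adjusted p = 0.000310), Uqcrb by 1.21 ± 0.19 (limma adjusted p = 0.000475) and Uqcrh, whose acidic hinge protein aids the contact with cytochrome c, by 0.99 ± 0.22 (limma adjusted p = 0.00587). Uqcr10 had a mean of 4610 ± 144 in the double line and 1735 ± 378 in the KSR1 line. Cyc1, which encodes cytochrome c1, rose by 0.94 ± 0.27 (limma adjusted p = 0.0304), and this call was lost in 6 of 22 alternative settings, among them those without KSR1 replicate 1 or 2 or without double-line replicate 2 or 3.

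Of 30 listed apoptosis genes that act around cytochrome c, 21 were tested. Against KSR1 2 rose and 2 fell (median 0.19 beside -0.07), numbers near the shares of 8.16% and 6.92% over all tested probe sets. Against GFP 3 rose and 1 fell (median 0.12 beside -0.02), where 7.71% and 7.93% did, and against H-RasV12 4 rose and 1 fell (median 0.02 beside -0.05), where 7.1% and 7.71% did. Those that rose against KSR1 were Vdac2, a channel of the outer membrane, by 1.26 ± 0.26 (limma adjusted p = 0.00410), and Mcl1, an inhibitor of cytochrome c release, by 1.24 ± 0.24 (limma adjusted p = 0.00218). Birc3, an inhibitor of apoptosis protein, had a mean of 54.7 ± 43.6 in the double line and 294 ± 110 in the KSR1 line and fell by 2.11 ± 0.40 (limma adjusted p = 0.00214). Bcl2l1, another inhibitor of cytochrome c release, fell by 1.09 ± 0.30 (limma adjusted p = 0.0252), a call lost without KSR1 replicate 1 or 2 and without double-line replicate 2 or 3. Ppif, the cyclophilin of the permeability transition pore, rose against GFP by 2.07 ± 0.29 (limma adjusted p = 0.000171). Against H-RasV12 the number that rose was 2 without H-RasV12 replicate 2 or 3. Birc3, the 1 that fell there, was no longer called without H-RasV12 replicate 3 or double-line replicate 2 or 3. In that comparison 2 fell without double-line replicate 1. Calls over all tested probe sets, in either direction, went from 1022 to 783 or 787 without H-RasV12 replicate 2 or 3. Without double-line replicate 1 they went to 1129, and against GFP from 1079 to 1169. The fall of Birc3 against GFP was lost in 10 of 22 alternative settings, namely without the filter, with a pseudocount of 100, with quantile normalization, with only the groups compared, and without GFP replicate 1 or 3, H-RasV12 replicate 2, KSR1 replicate 2 or double-line replicate 2 or 3, while again 2 genes fell without double-line replicate 1.

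Around Chchd10, 29 of 45 listed proteins of the intermembrane space and the cristae were tested. Among them, Uqcrh and Cox6b1 are also on the list of cytochrome c partners, and Htra2, Endog and Aifm1 on the apoptosis list. Against KSR1 7 rose and 0 fell (median 0.24 beside -0.07 over all tested probe sets), where 8.16% of all rose and 6.92% fell. Against GFP 8 rose and 0 fell (median 0.49 beside -0.02), where 7.71% rose and 7.93% fell, and against H-RasV12 6 rose and 0 fell (median 0.47 beside -0.05), where 7.1% rose and 7.71% fell. The number against KSR1 was 4 without KSR1 replicate 1, and the number against GFP was 5 without GFP replicate 2 or 3. The number against H-RasV12 was 2 without H-RasV12 replicate 1 or 2 and 3 without double-line replicate 2. Calls over all tested probe sets, in either direction, then went from 1040 to 791 against KSR1 and from 1079 to 861 or 740 against GFP. Against H-RasV12 they went from 1022 to 721 or 783, and to 785 without double-line replicate 2. Chchd3, a relative of Chchd10 in the complex that shapes cristae junctions, had a mean of 4047 ± 1001 in the double line and 1666 ± 194 in the KSR1 line and rose by 1.24 ± 0.24 (limma adjusted p = 0.00236). Ndufa8, a complex I subunit with the same cysteine-rich fold, rose by 1.01 ± 0.16 (limma adjusted p = 0.000641), and Micos10, a core subunit of the cristae complex, by 0.87 ± 0.23 (limma adjusted p = 0.0219), a call lost without KSR1 replicate 1 or 2 or double-line replicate 3. No tested gene of this list had a difference above 1.24 against KSR1, where that of Chchd10 was 5.37.

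Transcription factors, cofactors and relatives of PGC-1alpha and ERRalpha stood near the rest of the array. Of 54 listed, 25 were tested, with medians of -0.04 against KSR1, 0.02 against GFP and -0.10 against H-RasV12, beside -0.07, -0.02 and -0.05 over all tested probe sets. Those that rose numbered 1, 1 and 2 and those that fell 1, 2 and 2 in the same order, where 8.16%, 7.71% and 7.1% of all tested probe sets rose and 6.92%, 7.93% and 7.71% fell. Mitf rose in all 3 comparisons and was the 1 gene of the 25 that passed the filter through the double-line arrays alone, so a difference was bound to appear in the filtered test. It encodes a transcription factor that drives the gene of PGC-1alpha in human melanoma cells. Mitf had a mean of 1107 ± 1007 in the double line, 128 ± 51.8 in the KSR1 line, 49.5 ± 31.9 in the H-RasV12 line and 41.6 ± 22.9 in the GFP line and was 2.60 ± 0.56 higher in the double line than in the KSR1 line (limma adjusted p = 0.00561). Its double-line arrays were uneven, at 2.84, 5.22 and 3.44 above the GFP mean on the log2 scale in replicates 1 to 3. The call against KSR1 held in each of 22 alternative settings, the fit without the filter included. Mef2a, a muscle transcription factor that binds PGC-1alpha, fell by 0.83 ± 0.20 against KSR1 (limma adjusted p = 0.0124), which was lost without KSR1 replicate 1, with median centring (limma adjusted p = 0.0658) and on replicates 2 and 3 alone (limma adjusted p = 0.0661). It fell by 0.83 ± 0.20 against H-RasV12 (limma adjusted p = 0.0118), which was lost without H-RasV12 replicate 1 and on replicates 2 and 3 alone (limma adjusted p = 0.0603), and by 0.90 ± 0.20 against GFP (limma adjusted p = 0.00693). Thra, a thyroid hormone receptor, fell by 1.04 ± 0.22 against GFP (limma adjusted p = 0.00399; 0.0650 on replicates 2 and 3 alone) and by 1.07 ± 0.22 against H-RasV12 (limma adjusted p = 0.00325). Against H-RasV12 Nr1h3, the liver X receptor alpha, also rose (1.49 ± 0.33, limma adjusted p = 0.00678). Without double-line replicate 1 the numbers that rose were 7 against KSR1, 3 against GFP and 5 against H-RasV12. The number that fell against KSR1 was 2. Calls over all tested probe sets, in either direction, then went from 1040 to 1181, 1079 to 1169 and 1022 to 1129 in that order.

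The genes most like each of the 4 were taken by the Pearson correlation of log2 values over the 12 arrays. Since the 3 double-line arrays stand apart, a high value says mainly that a gene was high in them. This holds less for the genes closest to Esrra and Cycs, several of which were not called higher than in the KSR1 line. Zfand2a (r = 0.994), a stress-induced zinc finger protein, Atp6v1c1 (0.980), a subunit of the vacuolar proton pump, and Cd68 (0.976), a lysosomal membrane protein, came closest to Chchd10, followed by Pfkp (0.972), a phosphofructokinase, and Npc1 (0.968), a lysosomal cholesterol transporter. Cd68 is also a marker of macrophages. Of 8 macrophage and leukocyte markers on the array, Cd14 and Laptm5 were tested and 0 were called in any comparison of the double line. Over all tested probe sets 7.1% to 8.16% were called higher and 6.92% to 7.93% lower in these comparisons. Cd14 was bright throughout, at 1343 to 1595 in the double line against 1004 to 3024 elsewhere, and Laptm5 read 143 to 377 in the double line against 220 to 368 elsewhere. Ptprc (6.85 to 14.0 in the double line against 5.67 to 27.4 elsewhere), Lyz2 (4.56 to 17.4 against 3.86 to 10.5), Itgam (5.72 to 40.5 against 7.19 to 47.9) and Adgre1 (3.97 to 14.4 against 14.3 to 27.8) were near the bottom of the scale. Csf1r read 81.9 to 168 in the double line against 46.5 to 567 elsewhere, and Cd52 read 66.3 to 98.5 against 44.3 to 119. Their summed signal was 1849 to 2025 in the double line, 2217 to 4091 in the KSR1 line, 1570 to 1865 in the H-RasV12 line and 1388 to 2280 in the GFP line. Their part in the levels was not tested.

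Ppargc1a came closest to Traf6 (0.950), a ubiquitin ligase of innate immune signalling, and to Idh3a (0.950) and Etfdh (0.943), which serve the citric acid cycle and the entry of electrons from fatty acid oxidation and are both on the target list. Prom1 (0.942) and Mitf (0.938) followed. Idh3a had a mean of 1110 ± 403 in the double line, 449 ± 54.3 in the KSR1 line, 430 ± 23.6 in the H-RasV12 line and 456 ± 34.0 in the GFP line. Markers of tissues in which Ppargc1a is known to be high were also read. Of 5 adipocyte markers on the array 1 was tested, Cebpa, which was called lower in the double line in all 3 comparisons. Of all tested probe sets, 7.93% were called lower against GFP, 7.71% against H-RasV12 and 6.92% against KSR1. Ucp1, the uncoupling protein of brown fat, read 26.2 to 58.5 in the double line against 44.3 to 94.9 elsewhere. The summed adipocyte signal was 472 to 669 in the double line, 845 to 1298 in the KSR1 line, 831 to 916 in the H-RasV12 line and 954 to 966 in the GFP line. Of 11 muscle markers 4 were tested. In the 3 comparisons of the double line 0 were called higher, where 7.1% to 8.16% of tested probe sets were, and 1 was called lower, against GFP. Their sums were 1018 to 1623 in the double line, 1547 to 1801 in the KSR1 line, 1551 to 1570 in the H-RasV12 line and 1881 to 3392 in the GFP line. Actc1 made the largest part of them, with a mean of 573 in the double line and 2011 in the GFP line. Myf6 and Tnni3, neither tested, had their highest means in the double line, at 65.0 and 79.8, and the other muscle markers did not. The 1 tested endothelial marker was not called in the comparisons of the double line.

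Esrra (103964_at) came closest to Rnf145 (0.979), Plekho1 (0.944), Slpi (0.937), Slc30a9 (0.924) and Eno2 (0.922). Cycs came closest to Ero1b (0.958), an oxidase of protein folding, Krt19 (0.955), a keratin, Slc30a9 (0.943), a zinc transporter, Coq5 (0.933), an enzyme of ubiquinone synthesis, and Evi2a (0.933). Slc30a9 was thus among the 5 closest genes of both. Against KSR1 the double line was called higher for Plekho1, Eno2 and Krt19. It was not for Rnf145 (limma adjusted p = 0.0667), Slpi (limma adjusted p = 0.427) and Slc30a9 (limma adjusted p = 0.0708). Nor was it for Ero1b (limma adjusted p = 0.333), Coq5 (limma adjusted p = 0.101) and Evi2a (limma adjusted p = 0.105). In each gene not called, the KSR1 line had the second highest mean. Krt19 is an epithelial marker, with a mean of 1209 ± 207 in the double line, 418 ± 226 in the KSR1 line, 90.2 ± 30.0 in the H-RasV12 line and 118 ± 17.1 in the GFP line. Of 5 epithelial markers on the array 2 were tested, and Krt19 was the 1 called higher, in each comparison of the double line. Over all tested probe sets 7.1% to 8.16% were called higher in these comparisons. Cdh1, the other tested marker, was not called and read 411 to 793 in the double line against 419 to 994 elsewhere. Krt18 read 31.3 to 78.3 in the double line against 34.9 to 85.0 elsewhere, and Krt8 12.5 to 32.3 against 7.67 to 30.4. Epcam read 2.52 to 31.4 in the double line against 5.08 to 12.1 elsewhere. Krt19 made the largest part of the sum of the 5 in the double line, and Cdh1 did in the other lines. The summed signal of the 5 was 1662 to 2070 in the double line, 866 to 1536 in the KSR1 line, 546 to 799 in the H-RasV12 line and 622 to 952 in the GFP line. The part of this in the Cycs level was not tested.

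**Figure D4:**
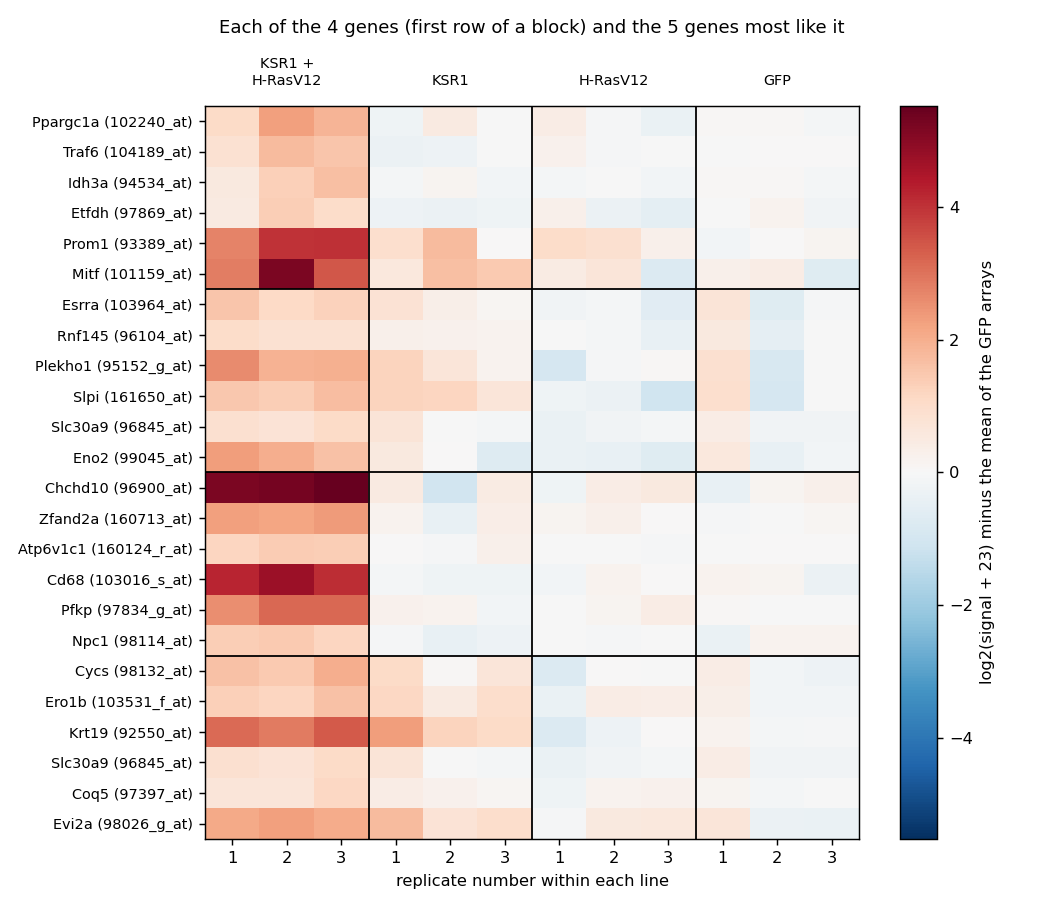
Log2(signal + 23) on each of the 12 arrays minus the mean of the GFP arrays, for Ppargc1a, Esrra (103964_at), Chchd10 and Cycs (the first row of each block) and the 5 genes most correlated with each. In the Chchd10 block the 9 arrays outside the double line lie between -1.04 and 0.53, the lowest being Chchd10 itself on KSR1 replicate 2, while Esrra and Cycs themselves lie above 0 on KSR1 replicate 1.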

How the data were processed

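The deposited table holds MAS5 signals of 12 arrays, each an intensity on a linear scale, per the submitters' processing notes. The MAS5 version is not given in the sources used here. Every array had a 2% trimmed mean of 500.3, so no scaling was added. Detection calls and probe positions were not used here. Names follow the platform annotation, with symbols brought up to date through the GRCm38.p6 gene table, and 66 control probe sets were left out. Uqcrb, Ero1b, Ucp1, Laptm5 and Actc1 were read by probe sets with the suffix f_at, whose probes can match several transcripts of a family.

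A pseudocount of 23 (the 20th percentile of the signals) preceded log2, which understates changes of dim probe sets. One limma fit (limma 3.58.1, R 4.3.3) of 4 group means with 8 residual degrees of freedom and an intensity trend gave two-sided tests for 6 comparisons, with Benjamini-Hochberg adjustment over 6897 probe sets. It was also run on simulated data with independent noise and no effect of the replicate number. That run cannot show how the fit behaves where same-numbered arrays deviate together. For lists, a gene was its brightest probe set. Named genes are all probe sets of the 4 genes, the 5 genes most correlated with each, and up to 4 called genes with the largest changes per list and comparison. The 4 genes and the lists were chosen with earlier results of these data known. Alternatives covered the pseudocount, the filter, scaling, the intensity trend, array weights, the arrays fitted, replicate numbers as a block and each array left out.

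Replicate numbers come from the sample titles. Deviations from the group means of same-numbered arrays correlated at 0.214, 0.162 and 0.432 between the double line and the KSR1 line and at 0.511, 0.210 and 0.367 between the KSR1 and GFP lines. All were above 0.1, and the numbers were taken to pair the arrays in those 2 comparisons. Arrays of unlike number correlated at -0.259 to 0.028 in the first. In the second they did so at -0.441 to 0.217, where GFP replicate 2 with KSR1 replicate 3 (0.217) exceeded the pair numbered 2. The printed tests have no block unless one is named, and the fit with it was an alternative. In the other comparisons the correlations of same-numbered arrays were not all above 0.1.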

Additional observations from a re-analysis of the deposited data

Results flagged for a closer look

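The difference between the H-RasV12 response with KSR1 and the response without it was tested by the interaction term, and it passed the threshold for 2 of the 5 probe sets. The same 2 passed in the fit without the filter, from which the test of Ppargc1a comes. The interaction called 4.16% of probe sets higher with the filter and 1.95% without the filter. It was 5.13 for Chchd10 (limma adjusted p = 4.02e-05), where the log2 difference of H-RasV12-carrying cells from their counterparts was 5.37 in the presence of KSR1 and 0.24 in its absence. It was 1.74 for the dimmer Esrra probe set, 102145_f_at (limma adjusted p = 0.0248), where the differences were 1.57 with KSR1 and -0.17 without it. That probe set passed the filter through the double-line arrays alone. Its call held in the fit without the filter (limma adjusted p = 0.0416) and was lost on leaving out each of 5 single arrays (limma adjusted p-values of 0.0545 to 0.0698). Groups of 3 arrays are too small for the check for outlying samples.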

How the results depend on the processing

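Of the calls of the 5 probe sets in the 3 comparisons of the double line, those against GFP and against H-RasV12 held in every alternative run, and so did those of Ppargc1a, Chchd10 and Esrra 102145_f_at against KSR1. Esrra 103964_at against KSR1, not called, passed with a pseudocount of 100 (0.81), quantile normalization (0.89), median centring (1.06), only the groups compared (0.89), the replicate block (0.89) and replicates 2 and 3 alone (0.98), and with single arrays left out it ran from 0.74 to 1.09. The block changed no other call in the 2 paired comparisons. Cycs against KSR1 ran from 0.83 to 1.33 with single arrays left out.

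The interaction passed for Ppargc1a with quantile normalization (1.79), median centring (1.84), array weights (1.63) and replicates 2 and 3 alone (2.03), for Esrra 103964_at with median centring (1.38) and the replicate block (1.20), and for Cycs with a pseudocount of 100 (1.25), median centring (1.53) and the block (1.36). The numbers did not pair all groups of the interaction. With single arrays left out it ran from 1.40 to 2.00 for Ppargc1a, 0.84 to 1.53 for Esrra 103964_at, 1.50 to 1.94 for Esrra 102145_f_at and 1.08 to 1.59 for Cycs.

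Differences near 0 changed sign. For Ppargc1a, H-RasV12 against GFP became 0.0066 with a pseudocount of 100, 0.025 with quantile normalization and 0.018 with array weights, and KSR1 against GFP became -0.0038 with median centring. Chchd10 in KSR1 against GFP became 0.0070 with a pseudocount of 100, and Cycs in H-RasV12 against GFP became 0.21 on replicates 2 and 3 alone. With single arrays left out, H-RasV12 against GFP ran from -0.22 to 0.18 for Ppargc1a, -0.64 to 0.049 for Esrra 103964_at, -0.29 to 0.063 for Esrra 102145_f_at and -0.40 to 0.0052 for Cycs, and KSR1 against GFP from -0.12 to 0.23 for Ppargc1a and -0.29 to 0.48 for Chchd10. The causes were not tested.

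The count of called probe sets for H-RasV12 against GFP, 5, became 8 without the filter, 56 with array weights, 2 with only the groups compared, 10 with the block, 53 on replicates 2 and 3 alone and 1 to 23 with single arrays left out. For KSR1 against GFP 813 became 482 to 934 with single arrays left out. For the interaction 531 became 801 with array weights and 339 to 679 with single arrays left out. Median centring moved the median of all tested probe sets for the double line against KSR1 from -0.072 to 0.093 and its split of calls from 563 higher and 477 lower to 701 and 308, and that of the interaction from 287 and 244 to 355 and 161. The 5 probe sets stayed higher in the double line under both scalings.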
